A study of Sus scrofa with 226 samples.

Results

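Activity-dependent slowing is the growing delay of the response of a nerve cell as it is stimulated over and over, and it was compared here between the more and the less slowing neurons of the same pigs. For each dorsal root ganglion neuron the response time at pulse 1 of a stimulus train was subtracted from the response time at pulse 75, and the cells of each animal were split at the median of that animal, so that the members were chosen by their recorded response times. Cells above the median are called strong slowing and cells at or below it weak slowing. Both values were recorded in 77.4% of the sequenced neurons, which gave 81 strong slowing and 94 weak slowing cells. They came from 7 of the 10 animals, numbers 4 to 10, which were 14 to 20 weeks old. All 7 were wild type (WT), and each gave cells to both classes. The neurons were kept in culture for 1, 2 or 3 days before they were recorded, collected whole and sequenced one at a time. Of the strong slowing cells 42, 32 and 7 were at 1, 2 and 3 days, and of the weak slowing cells 44, 39 and 11. The split was repeated after leaving out every cell with at least 50 CPM (the count of a gene scaled to the total count of the cell) of OSMR, the oncostatin M receptor, a gene that marks a C-fibre population. That repeat held 58 strong slowing and 70 weak slowing cells, and its tests used 56 and 67 cells of 6 animals because animal 8 had 2 strong slowing cells left.

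Slowing of conduction during repeated firing is a known property of unmyelinated C-fibres, and it is most pronounced in mechano-insensitive C-fibres, the silent nociceptors that the study set out to find markers for. In rodents and humans it is linked to inactivation of voltage-gated sodium channels, to the sodium and potassium pump that restores the ion gradients after firing, and to the hyperpolarization-activated HCN channels that counter the hyperpolarization the pump causes. OSMR and SST, the gene of the peptide somatostatin, mark a C-fibre population in rodents, while ADCYAP1, the gene of the peptide PACAP, is expressed in many peptidergic nociceptors. The recordings were made on cell bodies in culture, so the response time measured here is that of the soma and not conduction along an axon.

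Library depth ran from 109726 to 5506280 counts a cell over the 81 and 94 cells, with a median of 679284. Among general neuronal genes, UCHL1 reached 50 CPM in 100% of these cells, SNAP25 in 97.7%, PRPH in 94.9% and TUBB3 in 49.1%. RBFOX3 reached that level in 0% of them, which allows a share of up to 1.71%. No library was identical to another. The genes and the marker shares were measured apart from the response times, so they are tested below, whereas every value of the slowing protocol itself is only described. Nothing states whether the cells of an animal were cultured together. The p-values measure how the difference between the classes varied from animal to animal.

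The response times moved in steps of 0.05, in a unit that the recording table does not give, and every difference was a whole multiple of that step to within 0.001 steps. The medians of the animals lay between 0.05 and 0.125, so the border between the classes was close to no change. The least slowing of the strong slowing cells was 0.1 or 0.15 in every animal, and the most slowing of the weak slowing cells was 0.05 or 0.1. Slowing ran from 0.1 to 6.4 with a median of 0.3 in strong slowing cells and from -1.5 to 0.1 with a median of 0 in weak slowing cells. Of the weak slowing cells 38 sped up and 25 kept their response time exactly. The values were dense near 0 with a long upper tail. Animal 5 had the shortest tail, with a highest value of 0.4, and animal 7 the longest at 6.4.

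**Figure D1:**
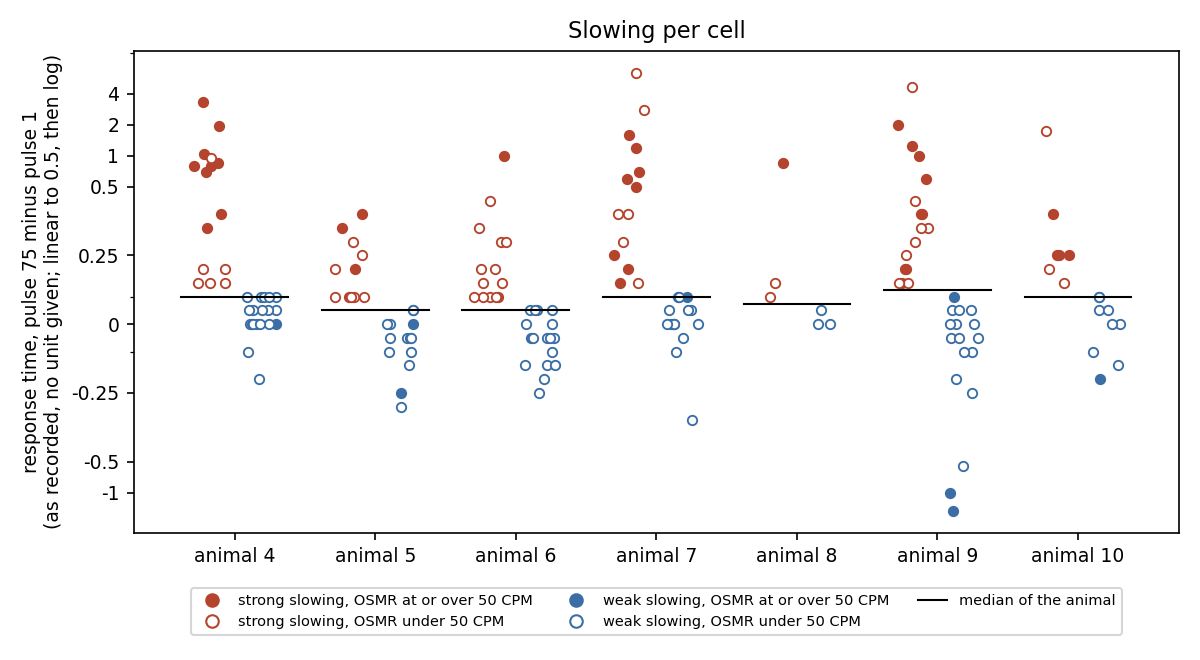
Slowing of every cell, as the response time at pulse 75 minus that at pulse 1 in the recorded unit, by animal. Filled points are cells with at least 50 CPM of OSMR and open points the others, strong slowing cells stand left of weak slowing cells, and the black line is the median of the animal. The y axis is linear up to 0.5 and logarithmic beyond. The class border lies between 0.05 and 0.125, close to the dense part of the values.

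The strong slowing cells were slower from the first pulse on. Averaged over animals, the response time at pulse 1 was 4.28 ± 0.73 in strong slowing cells and 3.10 ± 0.34 in weak slowing cells (SD, n = 7 animals). At pulse 10 the averages were 4.67 ± 0.90 and 3.20 ± 0.45 in strong and weak slowing cells, and at pulse 75 they were 4.85 ± 1.00 and 3.05 ± 0.29. Most of the added delay was thus present by pulse 10, and the weak slowing cells stayed level over the train. The membrane potential recorded during the train differed from that at pulse 1 by -2.51 ± 1.06 at pulse 75 in strong slowing cells, against 0.20 ± 1.07 in weak slowing cells. The slope of the response relative to pulse 1 was 0.937 ± 0.054 at pulse 75 in strong slowing cells and 0.979 ± 0.031 in weak slowing cells. In cells with OSMR under 50 CPM the same courses ended at 4.00 ± 0.64 in strong slowing cells and 2.92 ± 0.19 in weak slowing cells (n = 6 animals), with membrane potential changes of -2.18 ± 1.40 and 0.19 ± 0.63. These values belong to the protocol that made the classes and are given as a description.

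**Figure D2:**
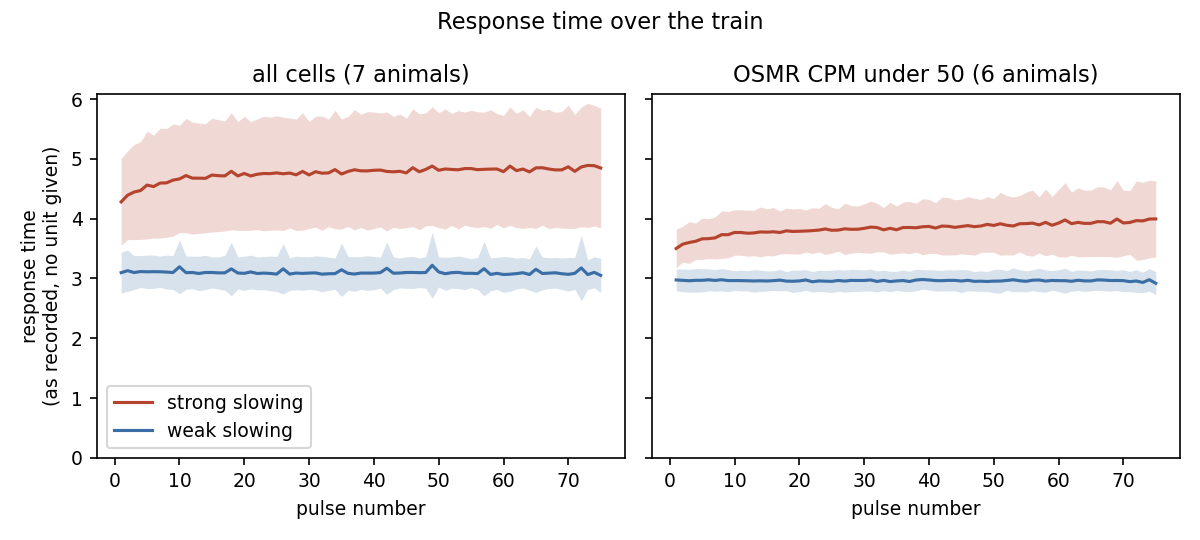
Response time over the 75 pulses of the train in the recorded unit, for all cells on the left and for cells with OSMR under 50 CPM on the right. Lines are means of the animal means and bands 1 SD over 7 and 6 animals. Strong slowing cells start at 4.28 and end at 4.85 on the left, while weak slowing cells start at 3.10 and end at 3.05.

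Neurons carrying OSMR were more common and neurons carrying ADCYAP1 less common among the strong slowing cells. The share of cells with at least 50 CPM of OSMR ran from 14.3% to 60%, with a median of 52.9%, in the strong slowing cells of the 7 animals. In the weak slowing cells it ran from 0% to 17.6%, with a median of 11.1%. It was higher in strong slowing cells in 7 of 7 animals, and the ranges overlapped only through animal 6, whose strong slowing cells had the lowest share. The mean share was 44.5% ± 17.0 in strong slowing cells and 9.65% ± 6.16 in weak slowing cells (SD, n = 7), a difference of 34.8 percentage points (two-sided exact sign-flip permutation test over animals, p = 0.0156, adjusted p = 0.03125 over 4 shares). The share with at least 50 CPM of ADCYAP1 was 56.2% ± 21.4 in strong slowing cells and 87.8% ± 6.45 in weak slowing cells, and it was lower in strong slowing cells in 7 of 7 animals (same exact test, p = 0.0156, adjusted p = 0.03125). Both p-values are the smallest that 7 animals allow. With a limit of 10 CPM in place of 50, the differences were 20.5 points for OSMR (adjusted p = 0.125, exact test) and -20.2 points for ADCYAP1 (adjusted p = 0.0625, exact test), and neither passed. Cells with TRPM8, the cold receptor, made up 17.7% ± 24.8 of strong slowing and 13.8% ± 15.2 of weak slowing cells, a difference of 3.90 points that did not pass (adjusted p = 0.667, exact test). The share of cells at 1 day in culture was 46.7% ± 20.8 and 46.1% ± 26.9 in strong and weak slowing cells (adjusted p = 0.969, exact test). In cells with OSMR under 50 CPM the ADCYAP1 share was 84.3% ± 12.4 in strong slowing and 91.7% ± 5.42 in weak slowing cells. It was lower in strong slowing cells in 4 of 6 animals and did not pass (adjusted p = 0.5625, exact test).

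Cells were also counted at the limit of 50 CPM. Of the 81 strong slowing cells 30 carried OSMR without ADCYAP1, 37 carried ADCYAP1 without OSMR, 7 carried both and 7 neither. Among the 94 weak slowing cells the same counts were 7, 78, 3 and 6. The strong slowing class was therefore a mixture in which the largest single set, at 45.7%, was still ADCYAP1 cells without OSMR. Within the strong slowing class the 30 cells with OSMR and without ADCYAP1 had a median slowing of 0.6, and the 37 cells with ADCYAP1 alone had a median of 0.2. Slowing above 1 was seen in 11 cells, 7 of them with OSMR and 4 without. The 2 highest values, 6.4 in animal 7 and 4.65 in animal 9, were both from cells with OSMR under 50 CPM. The cell with 6.4 held 415 CPM of TRPM8, and the cell with 4.65 held 3351 CPM of ADCYAP1. The sets overlap in slowing, since OSMR cells ran from -1.5 to 3.35 and the other cells from -0.55 to 6.4.

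The strong slowing neurons had larger mean diameters and lower values in the columns named for fast stimulation, though no recorded parameter passed after adjustment. Of 38 recorded parameters outside the slowing protocol, 0 (0%) had an adjusted p under 0.05 by the exact sign-flip test over animals, and 11 (28.9%) had an unadjusted p under 0.05. With 7 animals the smallest p is 0.0156, and 12 of the 38 parameters would have to reach it before any could pass. It was reached by 8 parameters, each with an adjusted p of 0.0742. The mean cell diameter ran from 36.4 to 42.3, median 38.4, in strong slowing cells and from 32.6 to 36.6, median 35, in weak slowing cells. The averages were 39.2 ± 2.27 in strong slowing and 34.96 ± 1.62 in weak slowing cells (SD, n = 7), higher in strong slowing cells in 7 of 7 animals. The parameter cslow, a name used for the whole-cell capacitance setting, which grows with membrane area, ran from 72.3 to 104.2, median 90.3, in strong slowing cells and from 50.9 to 66.4, median 51.8, in weak slowing cells. These ranges did not overlap. AHP_new, a parameter named for the afterhyperpolarization, averaged 36.6 ± 6.15 in strong slowing and 26.97 ± 3.63 in weak slowing cells, higher in 7 of 7 animals. In animal 9 both its class means, 33.4 and 25.8, were those of another column, AHP_Tau. The weak slowing means of animals 8 and 10 were also the same in both columns, so AHP_new may not be a separate measure in every animal. AHP_Tau was higher in strong slowing cells in 4 of 7 animals (adjusted p = 0.995, exact test).

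The columns named for stimulation at 4 to 100 Hz, which reach at most 20, were lower in strong slowing cells in 7 of 7 animals at every rate from 4 Hz up. At 10 Hz the mean was 15.4 ± 2.98 in strong slowing cells, against 19.7 ± 0.87 in weak slowing cells, where 6 of the 7 animals were at 20. At 20 Hz it was 13.6 ± 2.69 in strong slowing and 18.8 ± 1.00 in weak slowing cells, and at 50 Hz 8.61 ± 2.28 and 14.4 ± 1.66. At 100 Hz it was 4.52 ± 1.60 in strong slowing and 7.65 ± 1.16 in weak slowing cells. At 50 Hz the animals ran from 6 to 11 in strong slowing cells and from 12.3 to 16.5 in weak slowing cells, so the groups did not overlap. The table does not define these columns, and they are given under the names they carry. In cells at 1 day in culture alone the differences (strong minus weak) were 4.82 for diameter, 29.01 for cslow, -6.02 at 20 Hz and -5.56 at 50 Hz, while that of AHP_new was 1.32 against 9.65 over all days. Only 1 parameter then had an unadjusted p under 0.05 by the exact test, where 6 animals were left and the smallest p possible was 0.03125.

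Other parameters had larger p-values. The action potential duration APD was 3.32 ± 0.46 in strong slowing and 2.86 ± 0.20 in weak slowing cells (adjusted p = 0.162, exact sign-flip test, n = 7). Rheobase, the current needed for a first action potential, was 177.8 ± 69.5 in strong slowing and 123.7 ± 35.9 in weak slowing cells, higher in 6 of 7 animals (adjusted p = 0.170, exact test). HS_Quotient was 1.93 ± 0.24 in strong slowing and 2.68 ± 0.39 in weak slowing cells, lower in 6 of 6 animals (adjusted p = 0.119, exact test). Its unadjusted p of 0.03125 by that test was the smallest that 6 animals allow. At 1 day in culture its difference was 0.11 with the other sign. Sinusscore_old was -6.37 ± 4.70 in strong slowing and -11.4 ± 1.08 in weak slowing cells (adjusted p = 0.119, exact test, n = 7). The column Sinusscore_new was 0.346 ± 0.099 in strong slowing and 0.393 ± 0.085 in weak slowing cells, lower in 4 of 7 animals (adjusted p = 0.513, exact test). The resting membrane potential RMP was -58.7 ± 4.64 in strong slowing and -56.5 ± 1.64 in weak slowing cells (adjusted p = 0.445, exact test). Input resistance was 0.257 ± 0.105 in strong slowing and 0.279 ± 0.064 in weak slowing cells (adjusted p = 0.891, exact test). The share of spontaneously active cells was 0.182 ± 0.168 in strong slowing and 0.263 ± 0.122 in weak slowing cells (adjusted p = 0.620, exact test).

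Without the OSMR neurons the differences in size and in the stimulation columns were smaller and had the same direction. In cells with OSMR under 50 CPM, 0 of 38 parameters (0%) passed and 8 (21.1%) had an unadjusted p under 0.05, all 8 at 0.03125, the smallest that 6 animals allow, with an adjusted p of 0.148 (exact test). The diameter was 36.5 ± 1.73 in strong slowing and 34.1 ± 2.38 in weak slowing cells (SD, n = 6), higher in 6 of 6 animals. The parameter cslow ran from 64.9 to 82.4 in strong slowing cells and from 45.5 to 63.3 in weak slowing cells, with no overlap. At 50 Hz the values were 11.5 ± 1.14 in strong slowing and 15.4 ± 2.07 in weak slowing cells, and at 10 Hz they were 18.3 ± 1.42 in strong slowing cells and 20 in the weak slowing cells of every animal. AHP_new was 31.6 ± 2.42 in strong slowing and 27.7 ± 4.31 in weak slowing cells, and in animal 9 both its class means were again those of AHP_Tau. HS_Quotient was 2.18 ± 0.32 in strong slowing and 2.69 ± 0.49 in weak slowing cells, lower in 6 of 6 animals. APD was 2.76 ± 0.46 in strong slowing and 2.73 ± 0.12 in weak slowing cells (adjusted p = 0.938, exact test). Taking class medians in place of means left 3 of the 38 parameters with an unadjusted p under 0.05.

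**Figure D3:**
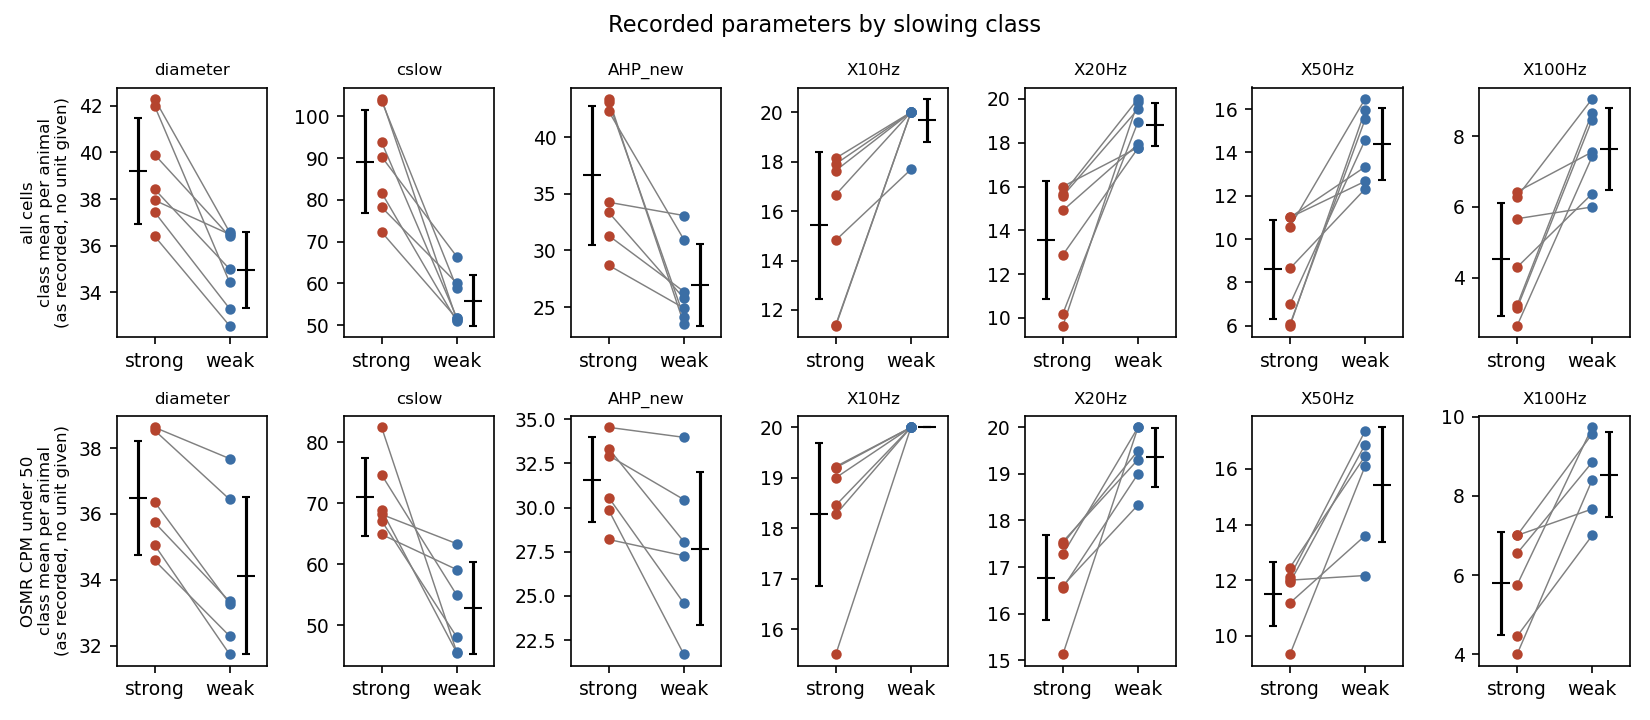
Recorded parameters by slowing class, in all cells above and in cells with OSMR under 50 CPM below, in the recorded units. Each line joins the 2 class means of an animal, with strong slowing on the left, and the black bars are mean ± SD over animals. Axes do not start at 0. Diameter and cslow were higher and the 4 stimulation columns lower in strong slowing cells in every animal shown.

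No gene passed the main test between the classes. Counts were added up within each class of an animal, and the classes were compared by edgeR's quasi-likelihood test, blocked by animal. Of 17321 genes, 0 (0%) had an adjusted p under 0.05, in either direction. Without adjustment 1298 genes (7.49%) were under 0.05, of which 569 (3.29%) had higher and 729 (4.21%) had lower values in strong slowing cells. The lowest adjusted p was 0.0862. DESeq2 on the same sums called 0.822% of the 13627 genes it adjusted higher and 0.771% lower, 1.59% in all, and had 10.1% of genes at an unadjusted p under 0.05. On class means of single-cell log2(CPM + 1), limma called 50 genes (0.289%) higher and 20 (0.115%) lower, 0.404% in all, with 8.19% of genes unadjusted. These tools shared 51 calls. Without the filter on low counts edgeR called 91 genes higher and 76 lower, of which 18 did not pass that filter. Leaving out animal 5 gave 11 genes called higher and 8 lower by edgeR. Fewer genes had an unadjusted p under 0.05 by edgeR in other splits. They were 839 of 17007 with slowing taken relative to pulse 1, and 812 of 15649 in the 6 animals with enough cells at 1 day in culture. Since the tools differ, no gene below is said to have passed, and adjusted p-values of DESeq2 and limma stand beside that of edgeR for the genes with the smallest p.

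OSMR and several genes on the list of OSMR and SST C-fibre markers, namely IL31RA, GNA14 and ETV1, had higher levels in strong slowing cells in at least 6 of 7 animals, without passing edgeR. OSMR itself had log2 CPM from 6.07 to 7.70, median 7.11, in the strong slowing sums and from 2.88 to 6.51, median 4.89, in the weak slowing sums. It was higher in 7 of 7 animals, with ranges that overlapped, and the log2 difference was 1.96 ± 0.38 (SE, edgeR adjusted p = 0.151). DESeq2 gave OSMR an adjusted p of 9.87e-05 and limma 0.0210. IL31RA, which pairs with OSMR to form the receptor of the itch cytokine interleukin 31, ran from 7.27 to 9.29, median 8.11, in strong slowing and from 2.99 to 8.16, median 6.40, in weak slowing sums. Its difference was 2.32 ± 0.57, higher in 6 of 7 animals (edgeR adjusted p = 0.262, DESeq2 0.0202, limma 0.0147). GNA14, a G protein subunit of the Gq family, averaged 5.83 ± 0.89 in strong slowing and 3.91 ± 1.35 in weak slowing sums (SD, n = 7), with a difference of 1.83 ± 0.34 (edgeR adjusted p = 0.140, DESeq2 4.33e-05, limma 0.0052). ETV1, a transcription factor of the ETS family, differed by 1.89 ± 0.41 (edgeR adjusted p = 0.212, DESeq2 0.000446, limma 0.0569). It is also on the list of A-fibre markers. Of 16 tested genes on a list of OSMR and SST C-fibre markers, 0 passed edgeR, and the median log2 difference was 1.09, beside 0.01 over all genes. Higher at an unadjusted p under 0.05 were 10 of these genes, beside 3.29% over all genes. SST was not among them: its levels were 6.45 ± 1.12 in strong slowing and 6.25 ± 1.16 in weak slowing sums, a difference of 0.20 ± 0.21 (edgeR adjusted p = 0.941). NMB and TMC3 are not on that list. NMB, the gene of the peptide neuromedin B, averaged 10.7 ± 0.69 in strong slowing and 9.11 ± 0.78 in weak slowing sums, higher in 7 of 7 animals, with a difference of 1.56 ± 0.25 (edgeR adjusted p = 0.112, DESeq2 4.33e-05, limma 0.0171). TMC3, a member of the transmembrane channel-like family, averaged 5.41 ± 0.86 in strong slowing and 3.21 ± 1.47 in weak slowing sums (edgeR adjusted p = 0.231, DESeq2 0.00051, limma 0.0171). These sums mix cell numbers with levels per cell, and a higher share of OSMR neurons and more OSMR RNA per neuron cannot be told apart in them.

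Among sodium channels the smallest p-values were those of SCN2A and SCN11A. SCN2A, which encodes Nav1.2, ran from 4.98 to 6.28 log2 CPM, median 5.28, in strong slowing sums and from 3.16 to 4.52, median 4.04, in weak slowing sums. The groups did not overlap, and the difference was 1.55 ± 0.28 (edgeR adjusted p = 0.138, DESeq2 7.41e-05, limma 0.0107). SCN11A encodes Nav1.9, a persistent sodium channel of nociceptors. It ran from 7.31 to 9.21, median 8.19, in strong slowing sums and from 5.93 to 7.91, median 7.22, in weak slowing sums, with a difference of 1.17 ± 0.26, higher in 6 of 7 animals (edgeR adjusted p = 0.212, DESeq2 0.00514, limma 0.662). SCN9A, the gene of Nav1.7, averaged 7.62 ± 0.38 in strong slowing and 7.24 ± 0.26 in weak slowing sums, a difference of 0.39 ± 0.17 (edgeR adjusted p = 0.627). SCN10A, the gene of Nav1.8, averaged 6.09 ± 0.48 in strong slowing and 5.63 ± 0.74 in weak slowing sums, a difference of 0.46 ± 0.22 (edgeR adjusted p = 0.675). SCN7A, the sodium-sensing channel Nax, differed by 0.18 ± 0.17, the auxiliary subunit gene SCN2B by 0.01 ± 0.18 and FGF12, whose product binds sodium channels, by 0.37 ± 0.22. All 10 tested members of the sodium channel list lay above 0, beside 8936 of all 17321 genes, and the list had a median log2 difference of 0.50. With an unadjusted p under 0.05 by edgeR 4 members were higher, beside 3.29% over all genes. Of the list 0 passed edgeR, while DESeq2 called SCN2A and SCN11A, and limma SCN2A, among the genes named here. SCN2B turned to -0.13 without animal 7 and to -0.10 in cells at 1 day in culture.

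Subunit genes of the sodium pump were followed next. ATP1B1 averaged 8.18 ± 0.75 in strong slowing and 8.11 ± 0.30 in weak slowing sums. ATP1B2, a pump subunit that glia also express, ran lower, at 6.34 ± 0.61 in strong slowing and 7.02 ± 0.45 in weak slowing sums, with a difference of -0.68 ± 0.19, lower in 6 of 7 animals (edgeR adjusted p = 0.342). PEX5L, an auxiliary subunit of HCN channels also known as TRIP8b, differed by 0.08 ± 0.23. HCN2 did not pass the filter on low counts.

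Of the potassium channel genes KCNIP4 had the smallest edgeR p. KCNK2, a background potassium channel chosen after its values were seen, had a larger difference of 1.59 ± 0.32, positive in 7 of 7 animals (edgeR adjusted p = 0.173). KCNIP4, a subunit that modulates the A-type channels of the Kv4 family, ran from 8.78 to 9.74 log2 CPM, median 9.02, in strong slowing sums and from 7.84 to 8.65, median 8.24, in weak slowing sums. The groups did not overlap, and the difference was 0.90 ± 0.16 (edgeR adjusted p = 0.138, DESeq2 0.00155, limma 0.00623). DPP10, another Kv4 auxiliary subunit, averaged 5.51 ± 0.83 in strong slowing and 4.49 ± 0.88 in weak slowing sums, higher in 7 of 7 animals, a difference of 1.00 ± 0.23 (edgeR adjusted p = 0.231, DESeq2 0.00565, limma 0.0473). The pore subunit KCND3 averaged 4.32 ± 0.81 in strong slowing and 4.31 ± 0.50 in weak slowing sums, with a difference of -0.01 ± 0.35. The β subunit genes KCNAB1 and KCNAB2 differed by 0.82 ± 0.35 and 0.13 ± 0.16. Of 24 voltage-gated potassium channel genes tested, 8 were higher and 1 lower at an unadjusted p under 0.05, 0 passed edgeR, and the median was 0.50. Over all genes 3.29% were higher and 4.21% lower at that level. The 14 other potassium channel genes had a median of -0.04, with 2 higher and 1 lower at that level. ANO3, an anoctamin, averaged 5.58 ± 0.50 in strong slowing and 3.96 ± 1.74 in weak slowing sums, a difference of 1.40 ± 0.39 (edgeR adjusted p = 0.327, DESeq2 0.0107, limma 0.00989), and the weak slowing sum of animal 8 stood at 0.36. Calcium channel genes had a median of 0.23 with 2 higher and 1 lower of 10, anion channel and chloride transporter genes -0.01 with 3 higher and 1 lower of 18, and TRP and mechanically gated channel genes 0.27 with 4 higher and 0 lower of 23.

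The smallest p-values among genes with lower values in strong slowing cells were those of BMPR1B, ADCYAP1, GNA13, RETREG1 and NUPR1, by the rule for named genes. ADCYAP1 ran from 8.11 to 11.01 log2 CPM, median 10.04, in strong slowing sums and from 10.44 to 12.04, median 10.96, in weak slowing sums, lower in 7 of 7 animals. The difference was -1.31 ± 0.21 (edgeR adjusted p = 0.112, DESeq2 0.000160, limma 4.77e-05). BMPR1B, a receptor for bone morphogenetic proteins, ran from 4.42 to 6.59, median 4.96, in strong slowing and from 6.18 to 8.55, median 6.84, in weak slowing sums. Its difference of -1.55 ± 0.22 had the lowest p of the 17321 genes (edgeR adjusted p = 0.0862, DESeq2 5.03e-07, limma 0.0604). RETREG1, a receptor for the turnover of the endoplasmic reticulum that is mutated in a hereditary sensory neuropathy, averaged 7.12 ± 0.58 in strong slowing and 8.31 ± 0.39 in weak slowing sums (difference -1.18 ± 0.20, edgeR adjusted p = 0.138, DESeq2 0.000446, limma 0.0612). GNA13, a G protein subunit gene, averaged 7.57 ± 0.59 in strong slowing and 8.59 ± 0.74 in weak slowing sums (difference -1.03 ± 0.17, edgeR adjusted p = 0.121, DESeq2 0.000446, limma 0.237). NUPR1, a stress-induced nuclear protein, averaged 8.31 ± 0.69 in strong slowing and 9.58 ± 0.63 in weak slowing sums (difference -1.27 ± 0.23, edgeR adjusted p = 0.138, DESeq2 0.000547, limma 0.000967). TAC1, the gene of substance P, averaged 12.5 ± 0.43 in strong slowing and 12.6 ± 0.38 in weak slowing sums (difference -0.09 ± 0.18). The 13 peptidergic nociceptor markers tested had a median of -0.67, and 0 passed edgeR. At an unadjusted p under 0.05, 6 of them were lower and 0 higher, beside 4.21% lower and 3.29% higher over all genes. Besides ADCYAP1 they included GAL, BDNF, PROKR2 and NGFR. GAL is among the genes that neurons raise after injury, and the list of axotomy and regeneration genes had a median of -0.35 with 1 higher and 5 lower of 18.

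**Figure D4:**
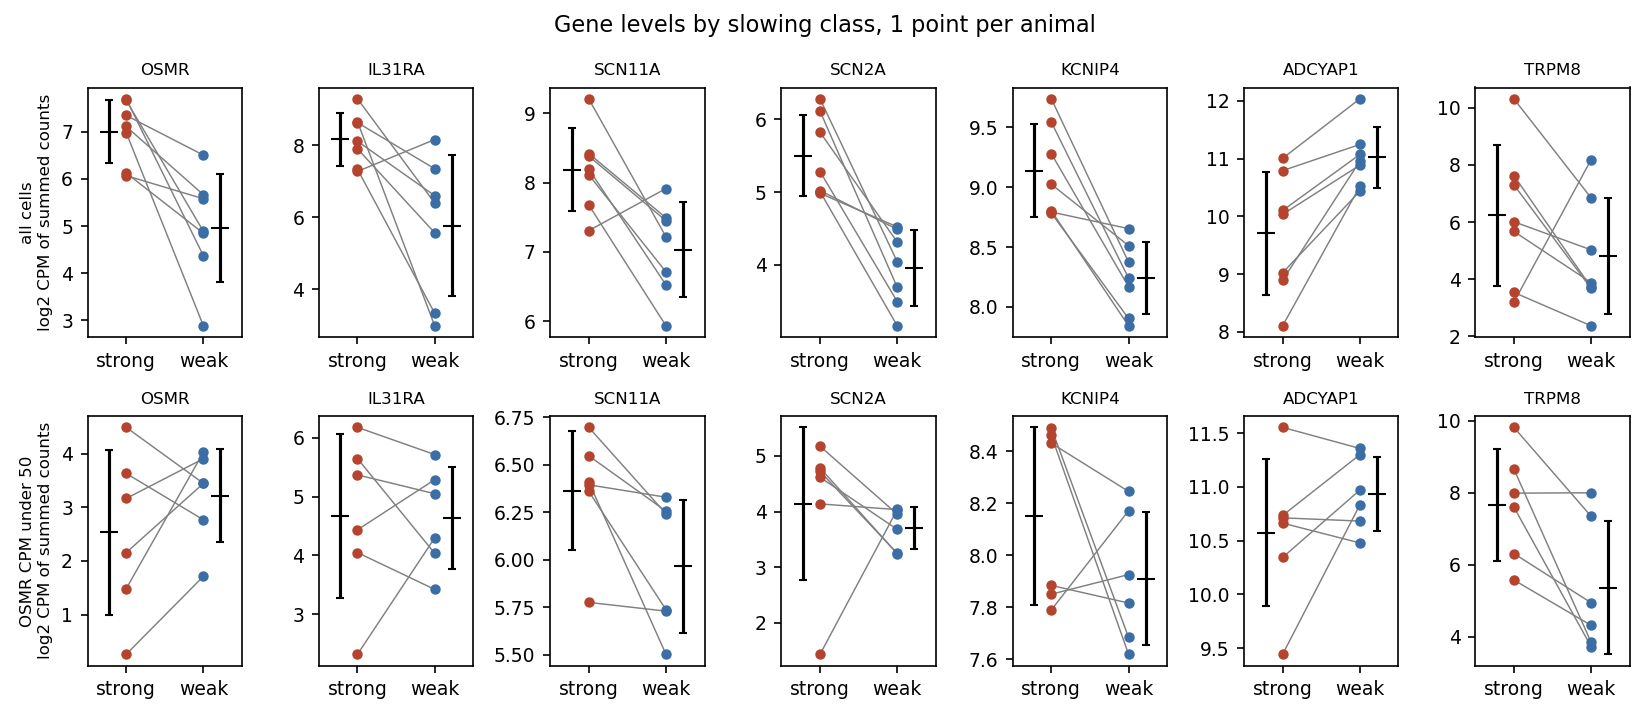
Levels of 7 genes as log2 CPM of the counts summed per animal and class, in all cells above (7 animals) and in cells with OSMR under 50 CPM below (6 animals). Each line joins the 2 sums of an animal, strong slowing on the left, and black bars are mean ± SD. SCN2A and KCNIP4 do not overlap between the classes in all cells, and both overlap in the cells with OSMR under 50 CPM.

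Lists of other neuron types and functions are given by their counts, beside 3.29% higher and 4.21% lower over all genes at an unadjusted p under 0.05. Of the 10 tested non-peptidergic nociceptor markers 4 were higher at an unadjusted p under 0.05, with a median of 0.60. Of 11 A-fibre markers 2 were higher, ETV1 among them, and 1 lower, with a median of 0.27. TRPM8, which marks cold sensory neurons, ran from 3.19 to 10.31 log2 CPM, median 6.01, in strong slowing sums and from 2.37 to 8.19, median 3.88, in weak slowing sums. Its difference was 2.02 ± 0.84 (edgeR adjusted p = 0.580), and animal 4 was the only one in which it was lower in strong slowing cells. The 4 cold sensory markers tested had a median of 0.83. The list of receptors for neurotrophins and GDNF had a median of -0.01, with 3 higher and 2 lower of 13. Its higher members included GFRA3 at 1.16 ± 0.24 and OSMR, which is on this list too and had its largest difference, 1.96 ± 0.38. Axonal structure and transport genes had a median of 0.19 with 3 higher and 1 lower of 21, and calcium buffering and extrusion genes -0.15 with 1 higher and 3 lower of 18. Stress and immediate early genes had a median of -0.39 with 0 higher and 2 lower of 13. The counts of higher and lower members are at an unadjusted p under 0.05 by edgeR, and no member of any of these lists passed edgeR.

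No gene passed edgeR without the OSMR neurons either. Of 16291 genes 0 (0%) passed edgeR, 540 (3.31%) had an unadjusted p under 0.05, 307 (1.88%) with higher and 233 (1.43%) with lower values in strong slowing cells, and the lowest adjusted p was 0.998. DESeq2 called 7 genes higher (0.043%) and 3 lower (0.0184%), 0.0614% in all, with 5.22% of genes unadjusted, limma called 0 (0%) with 777 at an unadjusted p under 0.05 (4.77%), and edgeR without the filter called 1 higher and 1 lower. SCN11A averaged 6.36 ± 0.31 in strong slowing and 5.97 ± 0.35 in weak slowing sums (SD, n = 6), a difference of 0.40 ± 0.19 that was positive in 6 of 6 animals (edgeR adjusted p = 0.998), but limma on class means of single-cell values gave -0.14. SCN2A differed by 0.57 ± 0.53, KCNIP4 by 0.24 ± 0.19 and GNA14 by 0.96 ± 0.72. NMB differed by 0.72 ± 0.27, and by -0.16 with limma. SCN10A differed by 0.44 ± 0.21, but by -0.33 between the upper and the lower tertile. DPP10 differed by 0.92 ± 0.41 and KCNAB1 by 0.96 ± 0.34. ADCYAP1 averaged 10.6 ± 0.68 in strong slowing and 10.9 ± 0.34 in weak slowing sums, a difference of -0.36 ± 0.21, lower in 3 of 6 animals. BMPR1B differed by -0.70 ± 0.25, but by 0.40 at 1 day in culture, and RETREG1 by -0.66 ± 0.27. IL31RA differed by 0.08 ± 0.42 and SST by -1.12 ± 0.47, while OSMR, whose level the choice of these cells used, differed by -0.72 ± 0.52. Both comparisons share cells, so their values are set side by side without a test of the difference.

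Another set of genes had the smallest p-values in this repeat, by the rule for named genes. TRPM8 ran from 5.58 to 9.81 log2 CPM, median 7.79, in strong slowing sums and from 3.73 to 7.996, median 4.63, in weak slowing sums. Its difference was 2.26 ± 0.56, higher in 5 of 6 animals (edgeR adjusted p = 0.998, DESeq2 0.00609, limma 0.992), and the share of cells with at least 50 CPM of TRPM8 was 25.2% ± 27.5 in strong slowing and 17.7% ± 17.0 in weak slowing cells (adjusted p = 0.609, exact sign-flip test over 6 animals). Animal 10 had 4 strong slowing and 3 weak slowing cells at that level, and each other animal at most 2 in a class, so few cells can set the level of a sum. ANO3 averaged 4.97 ± 0.71 in strong slowing and 3.57 ± 0.80 in weak slowing sums, a difference of 1.43 ± 0.37. SERPINI1, the gene of neuroserpin, differed by 1.04 ± 0.22, higher in 6 of 6 animals (edgeR adjusted p = 0.998, DESeq2 0.0371, limma 0.745). TFPI2, a protease inhibitor gene, ran from 6.96 to 8.20 in strong slowing and from 5.42 to 6.69 in weak slowing sums, without overlap, and differed by 1.15 ± 0.29, although its difference over all cells was -0.35 ± 0.49, or 0.027 without the animal block. ETV1 differed by 1.25 ± 0.31, and by -0.20 at 1 day in culture. Lower genes were FMO1, a flavin-containing monooxygenase, at -2.78 ± 0.49 (edgeR adjusted p = 0.998, DESeq2 1.64e-06, limma 0.739), the cohesin gene STAG2 at -0.93 ± 0.26, the transcription factor gene KLF10 at -0.86 ± 0.25 and the AMP deaminase gene AMPD2 at -1.08 ± 0.34, each lower in 6 of 6 animals. The pump subunit gene ATP1B1 differed by 0.52 ± 0.22, and PEX5L by 0.57 ± 0.27. The 10 sodium channel genes tested all lay above 0 here too, beside 8125 of all 16291 genes, with a median of 0.41. Both comparisons share cells. At an unadjusted p under 0.05 by edgeR 1 sodium channel gene was higher. The 23 voltage-gated potassium channel genes had a median of 0.21, with 4 higher and 0 lower at that level. Over all genes 1.88% were higher and 1.43% lower.

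**Figure D5:**
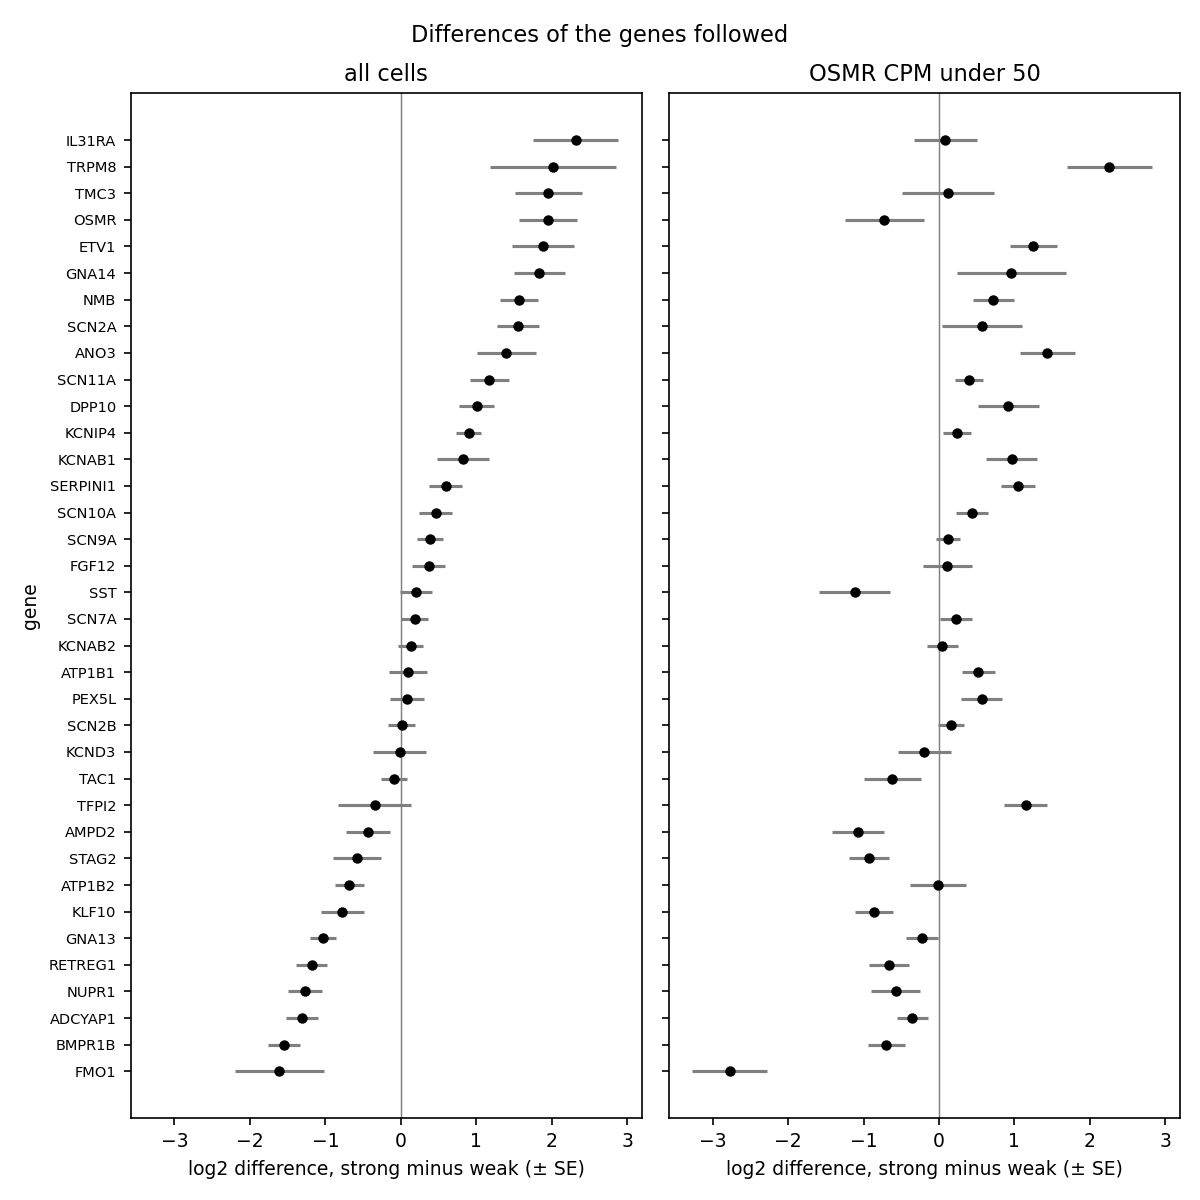
Log2 differences, strong minus weak slowing, with SE from edgeR, for the genes followed, in all cells on the left and in cells with OSMR under 50 CPM on the right. Genes run in the order of their difference over all cells. IL31RA lies at 2.32 on the left and at 0.08 on the right, and TRPM8 at 2.02 and 2.26. No gene passed the adjusted test in either panel.

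RNA of other cells was present in both classes. The summed level of 13 satellite glia markers ran from 7.42 to 9.16 log2 CPM in strong slowing cells and from 8.31 to 9.83 in weak slowing cells, a difference of -0.51 that did not pass (adjusted p = 0.5625, exact sign-flip test over 7 animals). Of 12 such markers tested singly, 5 were lower at an unadjusted p under 0.05, CDH19 among them, beside 4.21% over all genes. ATP1B2 is on this list as well as on that of the pump. Schwann cell markers differed by 0.14, macrophage markers by -0.01, fibroblast markers by 0.58 and endothelial and mural markers by 0.58 in their summed level, with adjusted p-values from 0.5625 to 0.984 by the exact test. In cells with OSMR under 50 CPM the macrophage level was 7.21 ± 0.93 in strong slowing and 6.64 ± 1.05 in weak slowing cells, higher in 6 of 6 animals (adjusted p = 0.25, exact test). The log2 total count was 19.2 ± 0.73 in strong slowing and 19.2 ± 0.85 in weak slowing cells over all cells, and 19.4 ± 0.75 and 19.2 ± 0.88 without the OSMR neurons. The part of these levels in the gene differences was not tested.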

How the data were processed

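Single neurons were recorded by patch clamp and sequenced with Smart-Seq2, per the labels' protocols. The gene table deposited by the authors holds estimated counts for 30420 genes, of which 14867 have a symbol, and it is not scaled to library size. Of the values above 0, 52.0% are not whole. The submitters' processing notes name bcl2fastq 2.20, while neither the aligner, the counter nor the genome build is given in the sources used here. The recording table deposited by the authors holds other values with no stated units or definitions. A further 43 rows of it belong to no sample used here.

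Cells were split at the median of their animal. Counts of the cells of a class were added up within each animal that had at least 3 cells in both classes, rounded, and tested with edgeR 4.0.16 (TMM, filterByExpr, glmQLFTest, animal as a block) in R 4.3.3, with Benjamini-Hochberg adjustment over all genes and a threshold of 0.05. Both classes of an animal come from the same animal, which is what pairs the sums. DESeq2 1.42.0 and limma 3.58.1 (class means of log2(CPM + 1)) were alternatives. Of the tests, only that of edgeR was tried on simulated counts. Log2 CPM levels use a prior count of 2. Recorded parameters known for 70% or more of the cells in 5 or more animals, marker shares and quality measures were compared by two-sided exact sign-flip tests of the difference within animals (Python 3.11.15). Errors of means are SDs over animals. The 10 largest called genes each way, or with too few calls the 5 with the smallest p each way that agreed in all animals but 1 at most and had a mean log2 CPM over 4, were named. So were the sodium channel, pump, HCN and voltage-gated potassium channel genes over that level, and 16 genes chosen by name. Some of these genes are not reported here. The members and the gene lists were chosen with earlier results of these data known. Reads made with Smart-Seq2 have no molecular identifiers, so the limit given for a share of 0 covers counting error only. The alternatives tried were other tools and scalings, no filter on low counts, no block, other minimum cell numbers, OSMR limits of 10 and 200 CPM, tertiles, relative slowing, cells at 1 day in culture, cells under 1000 CPM of macrophage markers, and leaving out each animal.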

Additional observations from a re-analysis of the deposited data

Results flagged for a closer look

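In 13 of the groups of values by animal, 1 animal stood far from the others. For independent and normally distributed values chance gives this in about 1 group in 20, or 9.35 of the groups compared. The groups here share cells and the stimulation columns stop at 20, so that number is only a rough guide. In all cells, the weak slowing sum of animal 6 had a log2 CPM of 10.14 for GNA13, with the others from 8.06 to 8.85, and of 4.06 for SCN10A, with the others from 5.64 to 6.32. The weak slowing sum of animal 8 had a log2 CPM of 0.36 for ANO3, with the others from 3.16 to 5.22, and of -2.49 for FMO1, with the others from 4.34 to 8.23. The weak slowing cells of animal 9 averaged 17.7 in the columns for stimulation at 4 Hz and at 10 Hz, where the other animals were all at 20. In cells with OSMR under 50 CPM, the strong slowing sum of animal 6 had a log2 CPM of 5.78 for SCN11A, with the others from 6.36 to 6.70. In these cells the strong slowing sum of animal 4 had a log2 CPM of 1.43 for SCN2A, with the others from 4.14 to 5.18, and the weak slowing sum of animal 6 had 10.2 for GNA13, with the others from 7.997 to 8.72. The weak slowing sum of animal 10 had a log2 CPM of 4.79 for ATP1B2, with the others from 7.11 to 7.80. In the same cells the strong slowing cells of animal 7 averaged 15.5 in the column for 10 Hz, with the others from 18.3 to 19.2. Cells with TRPM8 made up 71.4% of the strong slowing and 44.4% of the weak slowing cells of animal 10, against at most 18.2% and 17.6% in the other animals.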

How the results depend on the processing

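Of the gene calls, 0% higher and 0% lower by edgeR in both comparisons, DESeq2 gave 0.822% higher and 0.771% lower in all cells and 0.043% and 0.0184% in cells with OSMR under 50 CPM. In all cells limma gave 0.289% higher and 0.115% lower, no filter on low counts 0.306% and 0.255%, and tertiles 0.0374% and 0.00623%. Without cells high in macrophage markers 0.006% were lower. Leaving out 1 animal at a time gave from 0% to 0.0625% higher and from 0% to 0.0455% lower in all cells, with 0.00593% lower without animal 9. No filter gave 0.00344% in each direction in cells with OSMR under 50 CPM. Both classes of an animal come from that animal, and without the replicate block edgeR called 0 genes in either direction in both comparisons, with 1040 genes at an unadjusted p under 0.05 in all cells and 472 in cells with OSMR under 50 CPM. Without the block the differences of KCND3 (0.12) and TFPI2 (0.027) in all cells had the sign opposite to that with it.

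In all cells 1 parameter had an unadjusted p under 0.05 at 1 day in culture, where the smallest p possible by the exact test was 0.03125. In cells with OSMR under 50 CPM that count was 3 with class medians, 5 with at least 2 cells a class, 4 with tertiles, 0 at 1 day in culture, and 0 to 0 when an animal was left out, where the smallest p possible was 0.125 at 1 day and 0.0625 without an animal. With a limit of 10 CPM the share differences were 20.5 points for OSMR and -20.2 points for ADCYAP1. In cells with OSMR under 50 CPM, an alternative chosen after seeing the data, the ADCYAP1 difference was -7.47 points (adjusted p = 0.5625, exact test), the log2 total differed by 0.21 and the macrophage level by 0.56. At 1 day in culture the genes with a read differed by -35.6, the Schwann cell level by -0.26 and the macrophage level by 0.16. These 5 quality differences had the sign opposite to that in all cells.

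Differences took the opposite sign as follows (log2 for genes). In all cells these were SCN2B (-0.097), KCND3 (0.13), SST (-0.21), TFPI2 (1.09) and HS_Quotient (0.11) at 1 day in culture. They were SCN2B (-0.0010), KCND3 (0.11) and SST (-0.042) without cells high in macrophage markers, and ATP1B1 (-0.44), KCND3 (0.51) and TAC1 (0.012) with limma. They were ATP1B1 (-0.21), KCNAB2 (-0.15), KCND3 (0.014) and TFPI2 (0.41) with tertiles, and SST (-0.11), TFPI2 (0.18) and Input_res_new (0.026) with slowing relative to pulse 1. Without the OSMR neurons they were ETV1 (-0.20), BMPR1B (0.40), SCN9A (-0.069), ATP1B2 (0.15), KCNAB2 (-0.0087), KCND3 (0.15), TMC3 (-0.31) and RMP (0.26) at 1 day in culture. Without cells high in macrophage markers they were ATP1B2 (0.13) and KCND3 (0.012). With limma they were NMB (-0.16), SCN11A (-0.14), ATP1B2 (0.0098), IL31RA (-0.23) and TMC3 (-0.032). With tertiles they were SCN9A (-0.039), SCN10A (-0.33), ATP1B2 (0.24), TMC3 (-0.0043) and APD (-0.15). With relative slowing they were ATP1B2 (0.023), IL31RA (-0.035), TMC3 (-0.034) and APD (-0.10). With a limit of 10 CPM for OSMR they were SCN7A (-0.0027) and SCN2B (-0.043), and with 200 CPM OSMR (1.51). With the classes of all cells kept they were SCN10A (-0.039) and IL31RA (-0.22). With no filter it was ATP1B2 (0.0068), and with at least 2 cells a class ATP1B2 (0.11), KCNAB2 (-0.032), KCND3 (0.14) and Input_res_new (0.052).

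Leaving out 1 animal at a time, the log2 difference in all cells ran from -0.13 to 0.075 for SCN2B, from -0.024 to 0.36 for ATP1B1, from -0.0039 to 0.21 for KCNAB2, from -0.31 to 0.24 for KCND3, from -0.079 to 0.21 for PEX5L, from -0.0062 to 0.33 for SST and from -0.22 to 0.056 for TAC1. Without the OSMR neurons it ran from -0.33 to 0.0060 for GNA13, from -0.22 to 0.36 for FGF12, from -0.42 to 0.19 for ATP1B2, from -0.12 to 0.14 for KCNAB2, from -0.24 to 0.44 for IL31RA and from -0.39 to 0.54 for TMC3. The difference of APD ran from -0.065 to 0.17 and that of Input_res_new from -0.042 to 0.0046. The cause of these changes was not tested. With 7 and 6 animals the exact tests have few possible p-values, and no unit or definition of the recorded columns is given.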
